A study of Mus musculus with 12 samples.

Results

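The genes described here encode the proteins of the mitochondrial ribosome. They are the 76 gene symbols of the form Mrpl or Mrps followed by a number, out of 23479 symbols counted, with at least 30 reads summed over 12 RNA-seq libraries of mouse CD4+ T cells. The symbols name 47 proteins of the large subunit (Mrpl) and 29 of the small subunit (Mrps). No matching symbol fell below the minimum: the lowest totals were 616 reads for Mrpl47 and 647 reads for Mrps22, and all 76 were among the 10981 genes tested. The 4 groups of 3 libraries were Sirt2-/- cells stimulated for 24 h with 5 µg/ml of anti-CD3 bound to the plate (KO 24 h), wild-type cells after the same 24 h (WT 24 h), Sirt2-/- cells taken directly after isolation (KO 0 h) and wild-type cells taken directly after isolation (WT 0 h). Sirt2 encodes an NAD-dependent protein deacetylase, and Sirt2-/- mice lack it in every cell. The mice were C57BL/6J or Sirt2-/- on a C57BL/6 background, and neither their ages nor the number of mice per library is stated. The p-values therefore rest on the spread among libraries of a group, which could be technical alone. The cells came from spleen and were enriched by removing other cells to a purity above 95% by flow cytometry, per the labels, with anti-CD3 as the one stimulus that the labels name.

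Mitochondria keep their own ribosome, which makes the membrane proteins of the respiratory chain that are encoded in mitochondrial DNA. Its RNAs come from that DNA, but every protein of both subunits is encoded in the nucleus, made in the cytosol and imported. Part of these proteins descend from the bacterial ribosome and part are found in mitochondria alone. Naive T cells are small, resting cells, and activation through the T cell receptor is known to increase mitochondrial mass and mitochondrial translation over the first days.

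Each library held 3.63 to 10.03 megareads in genes, with 3.63 to 5.33 in KO 24 h and 4.68 to 10.03 in the other groups. Levels are counts per megaread of gene reads (CPM) scaled with TMM factors, which correct library sizes for differences in composition. Sirt2, which checks the labels, lay between 9.04 and 19.7 CPM in the 6 KO libraries and between 62.3 and 85.4 CPM in the 6 WT libraries. The 11 T cell markers, Cd4 among them, were detected in all groups and summed to 3886 to 4309 CPM at 24 h and to 7165 to 8218 CPM at 0 h. The 8 markers of activated T cells summed to 1853 to 2399 CPM at 24 h and 697.4 to 929.9 CPM at 0 h. Of these, Il2ra, Myc, Tnfrsf9, Tfrc, Tnfrsf4 and Cd69 rose in both genotypes, while Mki67, of cycling cells, and Batf fell, with log2 fold changes of −2.06 and −0.61 in KO and −1.35 and −1.11 in WT (edgeR, adjusted p of at most 0.0247 for each). Summed markers of other cells were low throughout, and those of NK and CD8 T cells were lower at 24 h in every library. The 5 NK cell markers summed to 2.61 to 6.22 CPM at 24 h and 25.3 to 44.1 CPM at 0 h, with Klra8 at 0 in every group. The 9 myeloid markers summed to 6.72 to 15.5 CPM at 24 h and 15.2 to 24.3 CPM at 0 h, the 2 CD8 T cell markers to 8.09 to 14.7 CPM at 24 h and 17.3 to 35.8 CPM at 0 h, and of 6 erythroid markers 1 was detected, in WT 0 h. The 4 platelet markers summed to 1.24 to 5.63 CPM at 24 h and 2.45 to 3.46 CPM at 0 h. Of B cell markers, Cd79a averaged, in CPM, 2.76 for KO 24 h, 3.61 for WT 24 h, 13.5 for KO 0 h and 13.1 for WT 0 h, and Cd79b was likewise lower at 24 h in both genotypes. Reads of the ribosomal RNA precursor Rn45s took 7.95% to 9.55% of gene reads at 24 h and 12.5% to 17.5% at 0 h. The part of these differences in the results below was not tested.

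Levels of the members spanned about one order of magnitude in CPM. Over all libraries, large subunit members had mean levels from 8.01 CPM (Mrpl47) to 69.4 CPM (Mrpl24) with a median of 24.7 CPM. Small subunit members ran from 8.50 CPM (Mrps22) to 42.9 CPM (Mrps5) with a median of 20.4 CPM. Between genes, levels were compared per kilobase of exon, with lengths from the GENCODE M21 annotation. On that scale Mrpl52, a protein of the central protuberance of the large subunit, stood highest at 141 CPM per kb. It was followed in the large subunit by Mrpl33 at 66.9 and Mrpl42 at 60.2 CPM per kb. In the small subunit Mrps21, Mrps15 and Mrps34 led with 69.2, 40.6 and 33.9 CPM per kb. The lowest per-kilobase levels were those of Mrpl47 (2.38), Mrpl48 (3.21) and Mrpl17 (3.24) in the large subunit and of Mrps25 (3.10), Mrps14 (3.40) and Mrps17 (3.40) in the small subunit. A finished ribosome holds 1 copy of most of these proteins, the stalk protein Mrpl12 being an exception, but their RNA levels were not equal. Levels per kilobase depend on annotated exons that may not all be used in T cells, so the lowest of them are uncertain: the exon length of Mrpl17 was 7605 bases, against a median of 1316 bases for the large subunit. Exons of 29 members overlap those of another gene in GENCODE, and the strand setting of the counting is not given. Reads counted in such overlaps may come from the other gene, or reads may have been left out as ambiguous, and which applies is not known. The overlaps with the largest shares, among genes that the count files also list, covered 75.6% of the exon length of Mrps25 (with Nr2c2) and 62.7% of that of Mrps34 (with Mapk8ip3), both on the opposite strand. Among genes that the count files do not list, they covered 100% of Mrpl53 (with Gm42688, same strand) and 59.1% of Mrps18b (with Gm16279, opposite strand).

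The summed RNA of each subunit did not separate the groups. Summed over the 47 large subunit members, levels in CPM were 1198 ± 69.1 for KO 24 h, 1224 ± 77.2 for WT 24 h, 1227 ± 49.7 for KO 0 h and 1214 ± 12.7 for WT 0 h (SD, n = 3 each). Summed over the 29 small subunit members they were 617.9 ± 34.9 for KO 24 h, 628.2 ± 37.6 for WT 24 h, 618.8 ± 9.55 for KO 0 h and 612.8 ± 16.8 for WT 0 h. The ranges of all 4 groups overlapped for both sums. Group means ran from 1198 to 1227 CPM for the large subunit, beside SDs of 12.7 to 77.2. For the small subunit they ran from 612.8 to 628.2 CPM, beside SDs of 9.55 to 37.6. The WT 24 h mean was 1.008 times the WT 0 h mean for the large subunit and 1.025 times for the small subunit, and the KO 24 h mean was 0.976 and 0.999 times the KO 0 h mean.

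The sums depend on the scale. As a share of all gene reads, with no TMM factor, the members took 0.1997% ± 0.00717 in KO 24 h, 0.1958% ± 0.00633 in WT 24 h, 0.1717% ± 0.00464 in KO 0 h and 0.1679% ± 0.00316 in WT 0 h. On that scale the 6 libraries of 24 h, from 0.1901% to 0.2062%, all lay above the 6 of 0 h, from 0.1643% to 0.1769%. The same shift was seen over all genes: with library size alone, the median log2 fold change of 24 h over 0 h moved to 0.24 in KO and 0.21 in WT over all genes tested, beside 0.24 in KO and 0.25 in WT over the members. Relative to the other genes the members therefore stayed where TMM put them. In bulk samples, fewer cells of a type and less RNA per cell cannot be told apart, and neither scale gives RNA per cell.

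The ratio of large to small subunit reads, which needs no scaling, was close to constant. It was 1.938 ± 0.0142 in KO 24 h (1.922 to 1.948), 1.948 ± 0.0352 in WT 24 h (1.915 to 1.985), 1.983 ± 0.05 in KO 0 h (1.929 to 2.028) and 1.982 ± 0.0335 in WT 0 h (1.948 to 2.015). Both 24 h means were lower than both 0 h means, but the ranges of all 4 groups overlapped. The symbols do not follow the known structure in every case: Mrps30 and Mrps18a sit in the large subunit, and Mrps36 belongs to the 2-oxoglutarate dehydrogenase complex. With these 3 assigned by structure the ratio was 2.231 ± 0.0226 in KO 24 h, 2.246 ± 0.0368 in WT 24 h, 2.293 ± 0.049 in KO 0 h and 2.276 ± 0.0651 in WT 0 h. Under that assignment, too, the ranges of KO 24 h, WT 24 h, KO 0 h and WT 0 h overlapped.

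**Figure D1:**
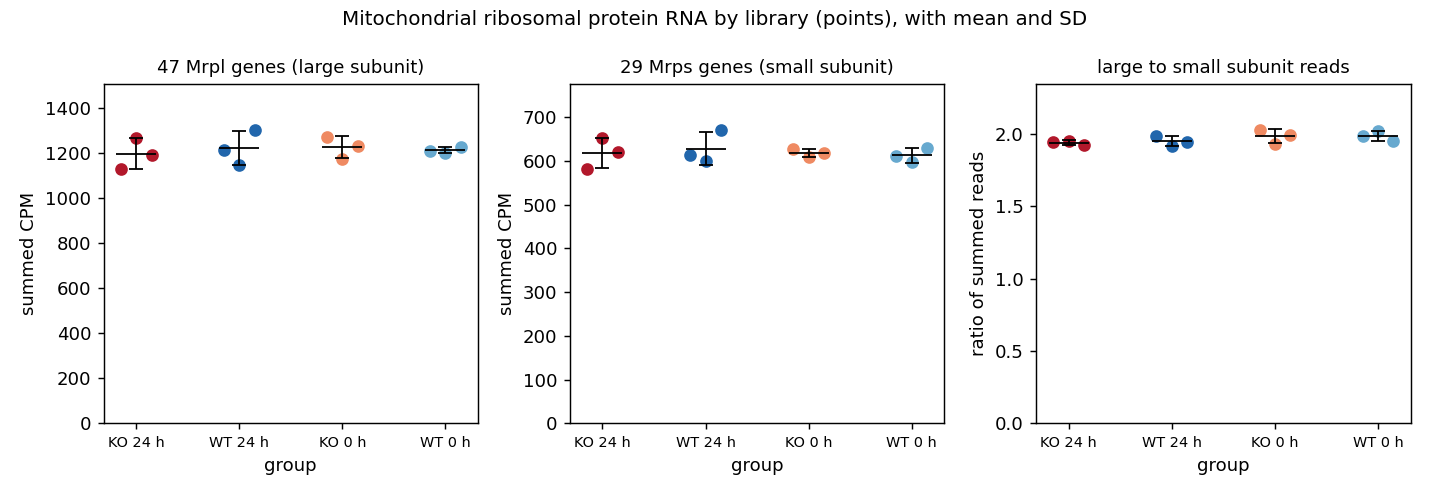
Summed CPM of the 47 large subunit members (left) and the 29 small subunit members (centre), and the ratio of their summed reads (right), for KO 24 h, WT 24 h, KO 0 h and WT 0 h. Points are libraries, bars are mean and SD, and all axes start at 0; the ratio lies between 1.915 and 2.028 in all 12 libraries.

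A minority of the members differed between stimulated cells and cells taken directly after isolation. The 24 h groups differ from the 0 h groups in both culture and anti-CD3, and no library of cells cultured without anti-CD3 was analysed here, so the effects of culture and of stimulation cannot be told apart. In WT 24 h against WT 0 h, 8 members rose, 4 fell and 64 did not pass at an adjusted p below 0.05 (edgeR quasi-likelihood test, Benjamini-Hochberg over all genes tested). That is 15.8% of the members, beside 40.7% of all genes tested. In the direction of higher at 24 h the background was 20.2%, and in that of lower it was 20.5%. By subunit, 4 of 47 large subunit members rose and 2 fell, and 4 of 29 small subunit members rose and 2 fell. The median log2 fold change was 0.05 over the large and 0.05 over the small subunit, beside 0.00 over all genes. Member values stayed near that median: 86.8% of the members lay within 0.5 of 0 on the log2 scale, beside 61.2% of all genes tested, while the median standard errors were alike at 0.177 and 0.173. Without overlap between libraries, 15 members were higher and 5 lower at 24 h, where 24.6% of all genes were higher and 24.8% lower in this way, 49.3% in all. With library size alone as the scale, the split of calls among the members was 18 higher and 2 lower. On that scale 5048 of the 10981 genes tested were called, with a median log2 fold change of 0.21.

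Among large subunit members, Mrpl47 showed the largest rise. Mrpl47 is the homologue of a bacterial protein at the exit of the peptide tunnel. Its levels were 9.44, 12.3 and 10.04 CPM in WT 24 h, against 3.29, 7.48 and 5.13 CPM in WT 0 h. The log2 fold change was 0.99 ± 0.29 (SE; adjusted p = 0.00432), and the lowest WT 24 h library lay above the highest WT 0 h library. Its exons overlap those of Actl6a and Ndufb5. Mrpl20 descends from a bacterial protein that binds ribosomal RNA early in assembly. It had 39.6, 29.97 and 37.8 CPM in WT 24 h, against 23.7, 23.1 and 23.3 CPM in WT 0 h, with a log2 fold change of 0.61 ± 0.16 (adjusted p = 0.0024). The 3 WT 0 h libraries were nearly equal and all lay below WT 24 h. Mrpl12 forms the stalk to which translation factors bind, and in human cells it also binds the mitochondrial RNA polymerase. It had 76.4, 75.2 and 72.4 CPM in WT 24 h, against 51.8, 44.9 and 57.1 CPM in WT 0 h, and rose by 0.54 ± 0.12 on the log2 scale (adjusted p = 0.000195). Mrpl12 was the most abundant of the members that rose, and its groups did not overlap. Mrpl1 descends from the bacterial protein at the site where spent tRNA leaves. It had 15.1, 20.1 and 17.02 CPM in WT 24 h, against 12.3, 9.98 and 13.4 CPM in WT 0 h, with a log2 fold change of 0.56 ± 0.20 (adjusted p = 0.021). This call rested on single libraries: the adjusted p was 0.135 without WT 24 h replicate 2 and 0.0926 without WT 0 h replicate 2.

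Among small subunit members, Mrps22 rose most. Mrps22 is a protein found in mitochondrial ribosomes alone, with no bacterial counterpart. It had 9.24, 10.6 and 15.2 CPM in WT 24 h, against 4.33, 3.46 and 5.76 CPM in WT 0 h. The log2 fold change was 1.37 ± 0.30 (adjusted p = 0.000214), the largest of the 76 members, and the groups did not overlap. Mrps18b, one of 3 paralogues related to a single bacterial protein, had 29.1, 30.1 and 34.5 CPM in WT 24 h, against 21.1, 17.3 and 20.7 CPM in WT 0 h. Its log2 fold change was 0.67 ± 0.16 (adjusted p = 0.000607), and all WT 24 h libraries lay above all WT 0 h libraries. Over 59.1% of their length, the exons of Mrps18b overlap those of Gm16279 on the opposite strand. The other paralogues did not pass: Mrps18a had a log2 fold change of 0.26 ± 0.22 (adjusted p = 0.374) and Mrps18c one of 0.23 ± 0.27 (adjusted p = 0.528). Mrps10 and Mrps2 both descend from bacterial proteins of the small subunit. Mrps10 had 15.5, 13.3 and 12.6 CPM in WT 24 h, against 9.18, 9.01 and 6.63 CPM in WT 0 h, with a log2 fold change of 0.74 ± 0.25 (adjusted p = 0.0167). Mrps2 had 38.8, 43.4 and 42.8 CPM in WT 24 h, against 24.9, 31.2 and 36.7 CPM in WT 0 h, with a log2 fold change of 0.43 ± 0.14 (adjusted p = 0.0125). Neither gene's groups overlapped, but both calls depended on the libraries used. The adjusted p of Mrps10 was 0.0662 without WT 24 h replicate 1 and 0.0867 without WT 0 h replicate 3. The adjusted p of Mrps2 was 0.0504 without WT 24 h replicate 2 and 0.0945 without WT 0 h replicate 1.

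The members that fell in WT were 2 of each subunit. Mrpl52, the member with the highest level per kilobase, had 49.6, 53.7 and 59.4 CPM in WT 24 h, against 91.6, 109.7 and 89.6 CPM in WT 0 h. Its log2 fold change of −0.83 ± 0.12 came with the lowest adjusted p among the members, 1.63e-07, and no WT 24 h library reached the WT 0 h range. Mrpl10 anchors the stalk protein Mrpl12 to the ribosome. It had 30.1, 30.8 and 25.8 CPM in WT 24 h, against 39.3, 42.7 and 40.3 CPM in WT 0 h, with a log2 fold change of −0.50 ± 0.15 (adjusted p = 0.0073). The stalk proteins Mrpl12 and Mrpl10 thus moved in opposite directions in WT. Mrps26, a small subunit protein particular to mitochondria, had 27.9, 27.7 and 35.2 CPM in WT 24 h, against 41.6, 50.99 and 39.1 CPM in WT 0 h. The change on the log2 scale was −0.53 ± 0.14 (adjusted p = 0.00168). Mrps24, the homologue of a bacterial protein at the entry of the messenger RNA channel, had 14.9, 20.7 and 19.7 CPM in WT 24 h, against 24.8, 23.8 and 28.8 CPM in WT 0 h. The fitted log2 fold change was −0.47 ± 0.17 (adjusted p = 0.0202). The groups of these 4 genes did not overlap. The call of Mrps24 was lost without WT 24 h replicate 1 (adjusted p = 0.127) and without WT 0 h replicate 3 (adjusted p = 0.129). With library size alone, Mrpl10 and Mrps24 kept their sign but did not pass (log2 fold changes of −0.29 and −0.27, adjusted p = 0.119 and 0.189).

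**Figure D2:**
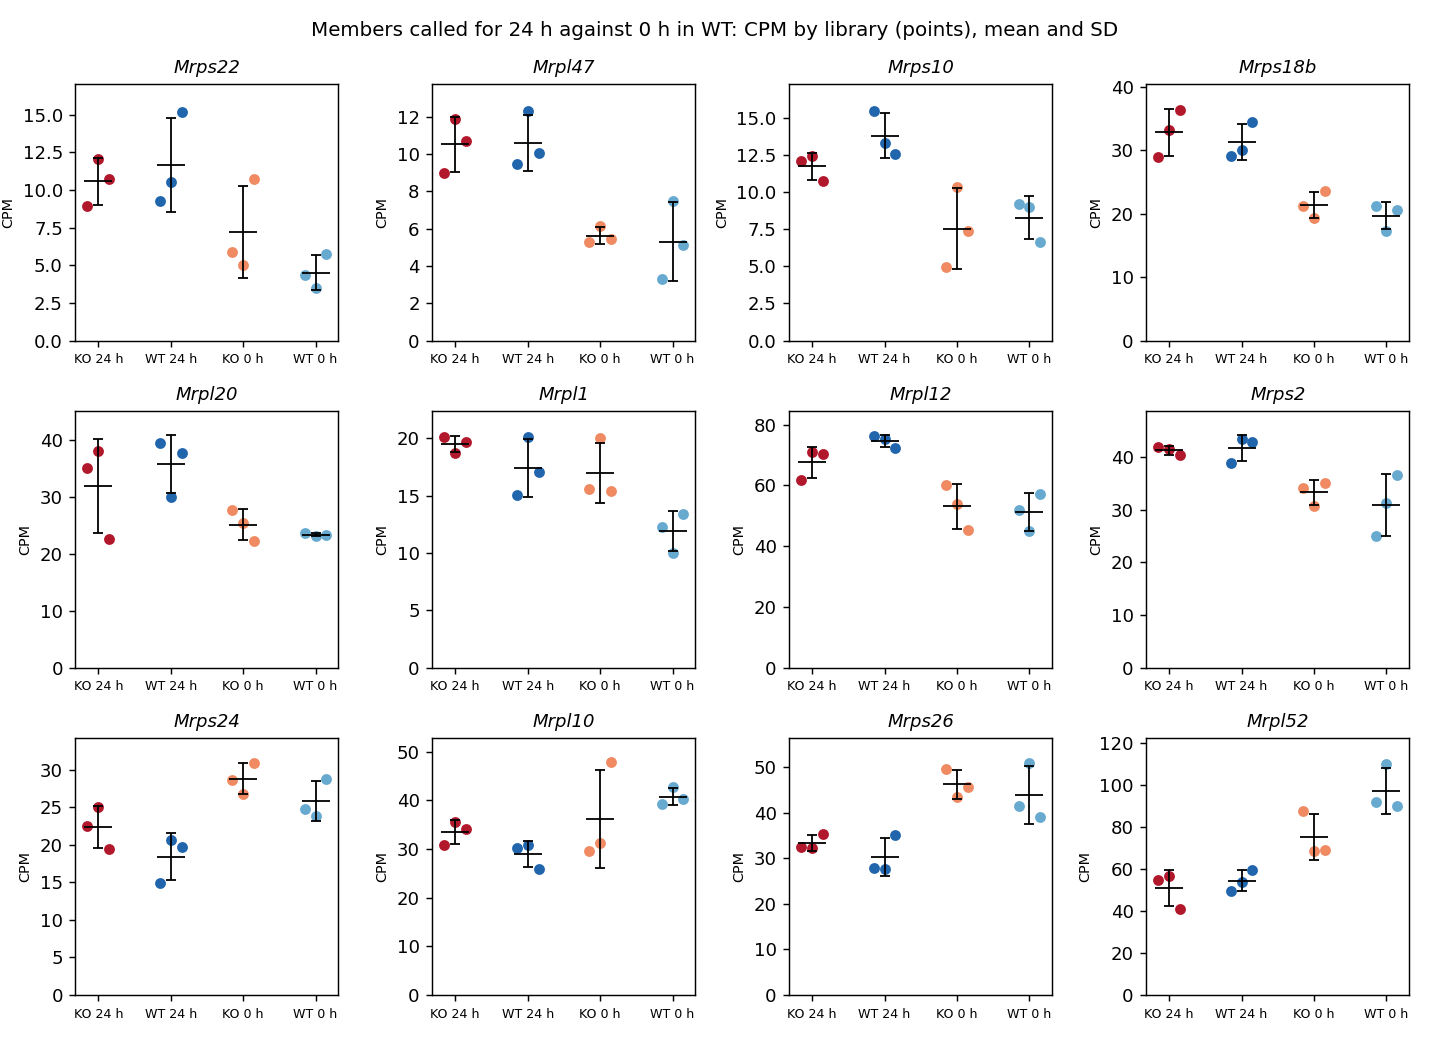
CPM of the 12 members called for WT 24 h against WT 0 h, in KO 24 h, WT 24 h, KO 0 h and WT 0 h. Points are libraries, bars are mean and SD, and every axis starts at 0; for each gene the WT 24 h points lie wholly above (upper 2 rows) or wholly below (lowest row) the WT 0 h points.

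The same times were compared in Sirt2-/- cells. In KO 24 h against KO 0 h, 8 members rose, 5 fell and 63 did not pass (edgeR, adjusted p below 0.05). That is 17.1% of the members, beside 40.4% of all genes tested, with a background of 19.4% higher and 21% lower. In the large subunit 4 rose and 4 fell, and in the small subunit 4 rose and 1 fell. Median log2 fold changes were 0.01 over the large and −0.02 over the small subunit, and 84.2% of the members lay within 0.5 of 0, beside 61.3% of all genes. Libraries did not overlap for 12 members that were higher and 12 that were lower, beside 23.9% and 25.5% of all genes, or 49.4% in both directions. The number of calls moved with single libraries. It was 8 (6 higher, 2 lower) without KO 24 h replicate 1, 9 (3 higher, 6 lower) without KO 24 h replicate 2, 7 (4 higher, 3 lower) without KO 24 h replicate 3 and 8 (5 higher, 3 lower) without KO 0 h replicate 3. Calls over all genes tested were fewer as well, at 3697, 4030, 3857 and 4117 in that order, beside 4435 in the full fit. Among the members the split was 21 higher and 1 lower with library size alone, and 6 higher and 9 lower with upper-quartile factors. Of the 10981 genes tested, 5111 and 4460 were called on these scales, with median log2 fold changes of 0.24 and −0.05.

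The calls of the 2 genotypes shared 6 members. Mrpl12, Mrpl47, Mrps10 and Mrps18b rose in both, which is 50.0% of the 8 risers in KO and 50.0% of the 8 in WT. Over all genes, 1678 risers were shared, or 78.8% of those in KO and 75.7% of those in WT. Mrpl52 and Mrps26 fell in both, which is 2 of the 5 in KO and 50.0% of the 4 in WT, beside 77.7% and 79.5% over all genes. Of the 76 members 57 had the same sign in both genotypes, none was called in opposite directions, and 19 were called in at least 1 of them. Across the 76 members the log2 fold changes of the 2 genotypes correlated with r = 0.718 (Pearson) and rho = 0.701 (Spearman), beside 0.871 and 0.826 over all genes tested. This is a correlation across genes of the same libraries, and genes are not independent replicates.

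Of the shared risers, Mrps18b held best in KO. It had 28.9, 33.2 and 36.3 CPM in KO 24 h, against 21.2, 19.4 and 23.5 CPM in KO 0 h, with a log2 fold change of 0.62 ± 0.16 (adjusted p = 0.00175), and it passed without any one library of either genotype. Mrpl47 had 8.97, 11.9 and 10.7 CPM in KO 24 h, against 5.26, 6.13 and 5.46 CPM in KO 0 h, with a log2 fold change of 0.91 ± 0.29 (adjusted p = 0.0108). The KO groups of both genes did not overlap, and the adjusted p of Mrpl47 was 0.0582 without KO 24 h replicate 2. Mrpl12 had 61.7, 70.9 and 70.2 CPM in KO 24 h, against 60.2, 53.9 and 45.2 CPM in KO 0 h, with a log2 fold change of 0.34 ± 0.12 (adjusted p = 0.0208). Its rise did not pass without KO 24 h replicate 2, KO 24 h replicate 3 or KO 0 h replicate 3, with adjusted p = 0.0834, 0.0691 and 0.0955. Mrps10 had 12.1, 12.4 and 10.7 CPM in KO 24 h, against 4.93, 10.3 and 7.34 CPM in KO 0 h, with a log2 fold change of 0.67 ± 0.26 (adjusted p = 0.04). That call stood in 1 of the 6 refits that leave out a library, the one without KO 0 h replicate 2 (adjusted p = 0.00642), and its adjusted p reached 0.227 in the others. Of the genes that fell in both genotypes, Mrpl52 had 54.6, 56.6 and 41.1 CPM in KO 24 h, against 87.5, 68.6 and 68.7 CPM in KO 0 h, with a log2 fold change of −0.56 ± 0.12 (adjusted p = 0.000284). Mrps26 had 32.4, 32.3 and 35.3 CPM in KO 24 h, against 49.7, 43.4 and 45.6 CPM in KO 0 h, with a log2 fold change of −0.48 ± 0.14 (adjusted p = 0.00574). Both passed without any one library, and their KO groups did not overlap. On the scale of library size alone Mrps26 did not pass in KO, at a log2 fold change of −0.23 (adjusted p = 0.182).

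The other members called in KO were Mrpl27, Mrps6, Mrps25 and Mrpl15, which rose, and Mrpl28, Mrpl34 and Mrpl18, which fell. Mrpl27, homologue of a bacterial protein near the site of peptide bond formation, had 14.1, 18.5 and 13.7 CPM in KO 24 h, against 9.97, 11.5 and 5.84 CPM in KO 0 h. Its log2 fold change was 0.75 ± 0.24 in KO (adjusted p = 0.0108) and 0.16 ± 0.23 in WT (adjusted p = 0.614). Mrps6, homologue of a bacterial small subunit protein, had 12.3, 11.5 and 14.4 CPM in KO 24 h, against 8.37, 8.23 and 6.59 CPM in KO 0 h. The change on the log2 scale was 0.70 ± 0.24 in KO (adjusted p = 0.0185) and 0.48 ± 0.23 in WT (adjusted p = 0.0896). Exons of Mrps6 overlap those of Gm49711 and Slc5a3 on the same strand, over 36.1% and 18.8% of their length. Mrps25, a protein particular to mitochondria, had 22.2, 19.9 and 25.6 CPM in KO 24 h, against 18.6, 15.5 and 10.2 CPM in KO 0 h (log2 fold change 0.58 ± 0.21, adjusted p = 0.0239). The KO groups of these 3 genes did not overlap, but KO 0 h replicate 3 was the lowest library for each. Without it their adjusted p was 0.0688 for Mrpl27, 0.054 for Mrps6 and 0.133 for Mrps25. Mrpl27 also did not pass without KO 24 h replicate 2 (adjusted p = 0.091), Mrps6 without KO 24 h replicate 3 (adjusted p = 0.0791), and Mrps25 without KO 24 h replicate 1 or 3 (adjusted p = 0.0527 and 0.107). Mrpl15, an abundant homologue of a bacterial protein, had 50.04 ± 3.70 CPM at 24 h, against 39.4 ± 5.79 CPM at 0 h, in KO (SD). The fitted log2 fold change was 0.33 ± 0.13 in KO (adjusted p = 0.0397) and 0.31 ± 0.13 in WT (adjusted p = 0.0501), values on either side of the threshold with nearly the same size. The call in KO was lost without KO 24 h replicate 2 or 3 and without KO 0 h replicate 2 or 3, where the adjusted p was 0.149, 0.0866, 0.0764 and 0.122.

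The other 3 large subunit members that fell in KO all descend from bacterial proteins. Mrpl28 had 8.97, 9.61 and 12.9 CPM in KO 24 h, against 15.1, 15.98 and 20.7 CPM in KO 0 h, with a log2 fold change of −0.72 ± 0.23 (adjusted p = 0.0108). Mrpl34 had 24.7, 33.2 and 29.9 CPM in KO 24 h, against 46.97, 37.1 and 33.7 CPM in KO 0 h, with a log2 fold change of −0.44 ± 0.16 (adjusted p = 0.0258). Mrpl18, of the central protuberance, had 27.6, 27.6 and 29.1 CPM in KO 24 h, against 34.5, 31.2 and 46.7 CPM in KO 0 h, with a log2 fold change of −0.41 ± 0.16 (adjusted p = 0.0352). All 3 also had negative values in WT, of −0.26, −0.30 and −0.22, that did not pass. None of the 3 calls held in every refit. The adjusted p of Mrpl28 was 0.0672 without KO 24 h replicate 1 and 0.0831 without KO 0 h replicate 3. That of Mrpl34 was 0.167, 0.0526 and 0.283 without KO 24 h replicate 1, KO 24 h replicate 3 and KO 0 h replicate 1. That of Mrpl18 was 0.0902, 0.0881, 0.0594 and 0.35 without KO 24 h replicates 1, 2 and 3 and KO 0 h replicate 3. With library size alone none of the 3 passed, with log2 fold changes of −0.48, −0.20 and −0.16.

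Grouped by place in the ribosome, members of one substructure were not called as a block. Of the 3 stalk proteins, Mrpl12 rose in both genotypes, Mrpl10 fell in WT and had a log2 fold change of −0.10 ± 0.16 in KO, and Mrpl11 was called in neither. Of 6 proteins around the exit of the peptide tunnel, Mrpl47 rose in both genotypes and the other 5 were not called. Of 7 proteins of the central protuberance, 1 rose and 2 fell in KO and 0 rose and 1 fell in WT. With 3 to 7 proteins each, beside 40.4% of all genes called in KO and 40.7% in WT, these counts were not tested against other genes. Mrps30 had a log2 fold change of −0.11 ± 0.17 in KO and 0.01 ± 0.16 in WT, and Mrps36 one of 0.00 ± 0.23 in KO and 0.03 ± 0.21 in WT.

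The start regions of 5 members are shown. Mrps18b rose and Mrpl52 fell in both genotypes, and Mrps22 had the largest rise in WT. Mrpl20 is the 1 member of the 8 that rose in WT with an E-box in this window. Mrps12 was called in no comparison and is the member nearest to Sirt2. Each is the 300-base promoter window of RefSeq (mouse GRCm38.p6), 5′ to 3′ on the strand of the gene, and ends just past the annotated start of transcription. Capitals mark matches on either strand to an E-box (CACGTG, the motif of MYC and MAX), an ETS motif (CCGGAAG, or CTTCCGG on the other strand), the core of the NRF1 motif (GCATGCG, or CGCATGC) and a YY1 core (AAGATGG, or CCATCTT).
Mrps18b, chr17:35916391-35916690, minus strand: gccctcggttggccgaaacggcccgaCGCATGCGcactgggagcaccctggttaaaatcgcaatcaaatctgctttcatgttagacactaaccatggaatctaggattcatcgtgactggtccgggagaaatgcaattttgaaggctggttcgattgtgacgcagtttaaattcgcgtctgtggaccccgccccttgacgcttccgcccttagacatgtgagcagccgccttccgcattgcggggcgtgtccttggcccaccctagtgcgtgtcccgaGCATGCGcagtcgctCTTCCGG
Mrps22, chr9:98601630-98601929, minus strand: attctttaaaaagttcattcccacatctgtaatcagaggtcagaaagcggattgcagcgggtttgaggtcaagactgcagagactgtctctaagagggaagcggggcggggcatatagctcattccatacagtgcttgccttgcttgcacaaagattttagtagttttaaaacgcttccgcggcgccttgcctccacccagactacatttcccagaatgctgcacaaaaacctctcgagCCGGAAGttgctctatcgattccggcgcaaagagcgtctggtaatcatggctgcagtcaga
Mrpl20, chr4:155802628-155802927, plus strand: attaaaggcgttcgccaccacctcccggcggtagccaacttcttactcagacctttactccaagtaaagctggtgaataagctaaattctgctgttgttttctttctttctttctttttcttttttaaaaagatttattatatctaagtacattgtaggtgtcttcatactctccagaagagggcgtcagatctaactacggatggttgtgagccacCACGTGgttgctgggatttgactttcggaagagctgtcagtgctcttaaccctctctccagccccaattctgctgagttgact
Mrpl52, chr14:54426659-54426958, plus strand: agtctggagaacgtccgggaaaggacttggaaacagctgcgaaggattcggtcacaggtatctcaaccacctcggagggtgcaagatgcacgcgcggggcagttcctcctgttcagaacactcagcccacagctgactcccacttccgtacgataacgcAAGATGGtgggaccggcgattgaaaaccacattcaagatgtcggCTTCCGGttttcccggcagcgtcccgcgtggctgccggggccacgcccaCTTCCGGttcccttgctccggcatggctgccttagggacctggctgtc
Mrps12, chr7:28741772-28742071, minus strand: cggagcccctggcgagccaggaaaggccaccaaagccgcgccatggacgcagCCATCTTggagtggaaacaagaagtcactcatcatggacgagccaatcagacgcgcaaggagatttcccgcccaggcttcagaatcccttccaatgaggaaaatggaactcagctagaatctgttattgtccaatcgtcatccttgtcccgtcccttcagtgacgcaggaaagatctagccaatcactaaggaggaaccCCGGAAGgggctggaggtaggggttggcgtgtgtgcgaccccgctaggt
The window of Mrps18b holds an ETS match at its end and NRF1 matches near both ends, the first of which matches on both strands with overlap. That of Mrpl52 holds ETS and YY1 matches, as does that of Mrps12, that of Mrps22 a single ETS match and that of Mrpl20 a single E-box. Over the members, 67 had a promoter in the RefSeq table. The ETS motif was in the windows of 24 of these 67 genes (35.8%), beside 22.3% of the tested genes with a promoter and 9.9% of all genes of the table. The YY1 core was in 13 (19.4%, beside 9.0% and 7.3%) and the NRF1 core in 8 (11.9%, beside 8.0% and 4.0%). The E-box was in 5 (7.5%, beside 12.3% and 8.1%). A motif of SP1 (GGGCGG, or CCGCCC), not marked in the sequences, was in 33 (49.3%, beside 69.8% and 38.2%). Of the 8 members that rose in WT, 2 had an ETS motif, 1 an E-box, 1 an NRF1 core and none a YY1 core. Of the 4 that fell, 2 had an ETS motif, 2 a YY1 core, 1 an NRF1 core and none an E-box. Such matches describe letters in the sequence and are not shown to be bound.

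No member passed the test between genotypes directly after isolation. The question here is whether the absence of Sirt2 alters RNA in unstimulated CD4+ T cells. In KO 0 h against WT 0 h, edgeR called 0 of 76 members at an adjusted p below 0.05, beside 0.346% of all genes tested. At an unadjusted p below 0.05 there were 7 members, 4 higher and 3 lower in KO, beside 8% of all genes, and DESeq2 called 0. The lowest adjusted p was 0.268, and 96.1% of the members lay within 0.5 of 0 on the log2 scale, beside 89.9% of all genes. Libraries did not overlap for 3 members higher and 6 lower in KO, where 6.04% and 6.37% of all genes did so, 12.4% in all. The 2 CD8 T cell markers summed to between 30.8 and 35.8 CPM in KO 0 h, against 17.3 to 18.5 CPM in WT 0 h. Nearly all of this was Cd8b1, at means of 31.5 and 17.4 CPM. Cd8a, at 1.17 and 0.68 CPM, was not among the genes tested. The B cell marker Cd22 averaged 1.32 CPM in KO 0 h, against 7.41 CPM in WT 0 h (edgeR, adjusted p = 0.0118). The B cell markers Cd79a and Cd79b did not follow it. They averaged 13.5 and 5.32 CPM in KO 0 h, against 13.1 and 4.22 CPM in WT 0 h (edgeR, adjusted p = 0.988 and 0.943). The part of such cells in these values was not tested.

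The members with the lowest p at 0 h were Mrpl52 and Mrpl4 of the large and Mrps16 and Mrps22 of the small subunit. Mrpl52 had 87.5, 68.6 and 68.7 CPM in KO 0 h, against 91.6, 109.7 and 89.6 CPM in WT 0 h. Its log2 fold change was −0.37 ± 0.12 (edgeR, adjusted p = 0.268), and the KO libraries all lay below the WT libraries. Mrpl4, which lines the peptide tunnel, had 35.8, 40.5 and 48.6 CPM in KO 0 h, against 32.4, 22.7 and 36.04 CPM in WT 0 h, and the ranges just overlapped. The change on the log2 scale was 0.45 ± 0.15 (edgeR, adjusted p = 0.33). Mrps16, homologue of a bacterial small subunit protein, had 26.1, 21.95 and 25.2 CPM in KO 0 h, against 30.5, 31.3 and 32.8 CPM in WT 0 h, with no overlap. The fitted log2 fold change was −0.37 ± 0.16 (edgeR, adjusted p = 0.538). Mrps22 had 5.90, 5.00 and 10.7 CPM in KO 0 h, against 4.33, 3.46 and 5.76 CPM in WT 0 h, with a log2 fold change of 0.64 ± 0.31 (edgeR, adjusted p = 0.612). The KO 0 h values of Mrps22 were uneven, with replicate 3 near the level of KO 24 h.

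No member passed between genotypes in stimulated cells either. In KO 24 h against WT 24 h, edgeR called 0 of 76 members, beside 0.273% of all genes tested. At an unadjusted p below 0.05 there were 3, of which 1 was higher and 2 lower in KO, beside 7.06% of all genes, and DESeq2 called 0. The lowest adjusted p was 0.566. In all, 1 member was higher and 4 were lower in KO with no overlap of libraries, where 5.74% and 7.19% of all genes were, 12.9% in all. Mrps28, a small subunit protein, had 16.3, 14.9 and 17.4 CPM in KO 24 h, against 11.7, 9.99 and 12.4 CPM in WT 24 h. Its log2 fold change was 0.51 ± 0.22 (edgeR, adjusted p = 0.609), and all KO 24 h libraries lay above WT 24 h. Mrpl46, of the central protuberance, had 7.87, 9.79 and 7.96 CPM in KO 24 h, against 14.9, 9.42 and 16.5 CPM in WT 24 h, where WT 24 h replicate 2 lay within the KO range. The change on the log2 scale was −0.65 ± 0.26 (edgeR, adjusted p = 0.566). Mrpl19, a homologue of a bacterial large subunit protein, had 28.9, 22.7 and 24.1 CPM in KO 24 h, against 31.8, 27.7 and 35.9 CPM in WT 24 h, with a log2 fold change of −0.33 ± 0.16 (edgeR, adjusted p = 0.706). Its ranges overlapped. The medians over the members were 0.04 at 0 h and −0.05 at 24 h.

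Mrps12 is the member nearest to the deleted gene: it lies 4 protein-coding genes from Sirt2 on chromosome 7 in the RefSeq order. The next member on that chromosome is 490 genes away. Mrps12 is the homologue of a bacterial protein at the decoding site. It had 6.04, 9.61 and 4.48 CPM in KO 24 h, against 9.64, 8.38 and 11.9 CPM in WT 24 h. Directly after isolation it had 10.9, 7.26 and 5.84 CPM in KO, against 10.1, 11.2 and 13.8 CPM in WT. The KO mean was the lower at both times, with log2 fold changes of −0.54 ± 0.29 at 24 h and −0.52 ± 0.27 at 0 h, but the ranges overlapped both times. Neither passed (edgeR, adjusted p = 0.753 and 0.653).

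**Figure D3:**
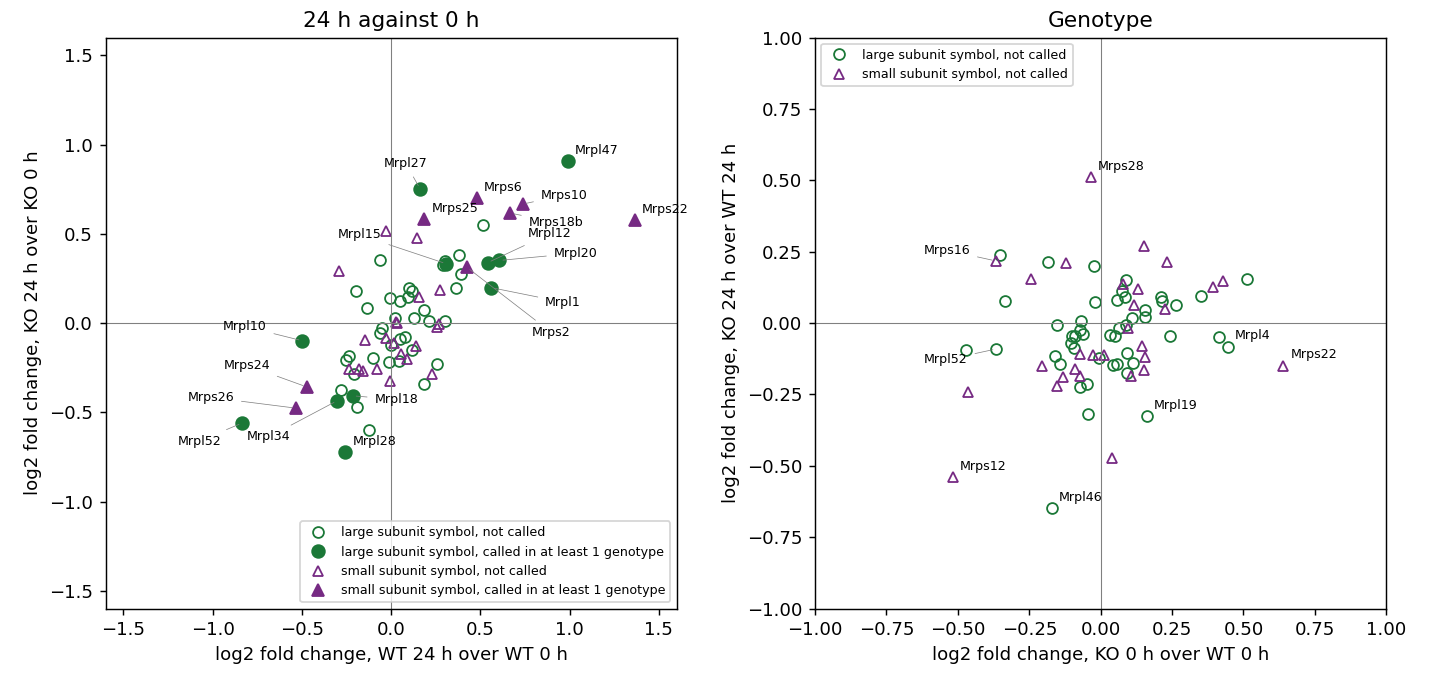
Log2 fold changes of the 76 members, with circles for large and triangles for small subunit symbols. Left, 24 h over 0 h in KO (vertical axis) against WT (horizontal axis), where the 19 members called in at least 1 genotype are filled and named and none of them is called in opposite directions; right, KO over WT at 24 h (vertical axis) against 0 h (horizontal axis), where none is called and the members of lowest p, and Mrps12, are named.

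The difference between 24 h and 0 h was compared between genotypes with the interaction term. No member was called by edgeR, beside 0.00911% of all genes tested. At an unadjusted p below 0.05 there were 3, beside 5.24% of all genes, DESeq2 called 0, and the lowest adjusted p was 0.846. A call in WT alone, as for Mrps22, Mrpl20 and Mrpl10, or in KO alone, as for Mrpl27 and Mrpl28, was therefore not shown to differ between the genotypes. Mrps16 had the lowest p. Its KO libraries had 25.1, 33.9 and 30.9 CPM at 24 h, against 26.1, 21.95 and 25.2 CPM at 0 h. Its WT libraries had 21.1, 25.5 and 30.1 CPM at 24 h, against 30.5, 31.3 and 32.8 CPM at 0 h. The time change in KO minus that in WT was 0.58 ± 0.23 on the log2 scale (edgeR, adjusted p = 0.846). The mean of Mrps16 was higher in KO 24 h than in KO 0 h and lower in WT 24 h than in WT 0 h, and neither time comparison passed (adjusted p = 0.153 in KO and 0.134 in WT). Mrpl4 had an interaction of −0.53 ± 0.22 (edgeR, adjusted p = 0.895), Mrpl19 one of −0.49 ± 0.22 (edgeR, adjusted p = 0.932) and Mrps22 one of −0.79 ± 0.42 (edgeR, adjusted p = 0.952). The adjusted p of all 4 was at least 0.846.

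Genes that act with the mitochondrial ribosome were read beside it in the same fit, against the background over all genes tested of 19.4% higher and 21% lower in KO and 20.2% higher and 20.5% lower in WT. Of 7 further ribosomal proteins with other symbols, 2 rose and 2 fell in KO, and 0 rose and 1 fell in WT. Dap3, a GTP-binding protein of the small subunit, fell in both, with log2 fold changes of −0.37 ± 0.14 in KO (adjusted p = 0.0247) and −0.50 ± 0.13 in WT (adjusted p = 0.0021). In KO, Chchd1 and Ptcd3 of the small subunit rose by 0.90 and 0.45 on the log2 scale (adjusted p = 0.000572 and 0.0291). Ict1, a peptidyl-tRNA hydrolase in the large subunit, had a log2 fold change of −0.66 in KO (adjusted p = 0.000106), and none of the 3 passed in WT. With library size alone the fall of Dap3 did not pass, at −0.13 in KO (adjusted p = 0.454) and −0.29 in WT (adjusted p = 0.0745), and the 7 genes gave 2 higher and 1 lower in KO and 1 higher and 0 lower in WT.

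Of 31 genes of ribosome assembly and ribosomal RNA modification, 5 rose and 2 fell in KO, and 5 rose and 3 fell in WT. The RNA-binding protein Fastkd2 rose in both, by 1.22 ± 0.25 in KO (adjusted p = 8.17e-05) and 0.92 ± 0.24 in WT (adjusted p = 0.00178) on the log2 scale. Nsun4, a methyltransferase of mitochondrial ribosomal RNA, and Wbscr16 rose in WT, by 0.83 (adjusted p = 0.00386) and 0.88 (adjusted p = 0.0138), and had log2 fold changes of 0.55 and 0.08 in KO that did not pass (adjusted p = 0.0571 and 0.87). Of 15 genes in a list of translation factors and related genes, 3 rose and 1 fell in KO, and 1 rose and none fell in WT. The 1 that rose in WT was Lrpprc, which stabilises mitochondrial messenger RNA and is not a translation factor. Lrpprc rose by 0.59 in KO (adjusted p = 0.000133) and 0.67 in WT (adjusted p = 1.26e-05). Of 22 genes of aminoacyl-tRNA synthetases and related enzymes that serve mitochondria, 3 rose and 2 fell in KO and in WT. Gars and Kars, which serve the cytosol too, rose in both, with log2 fold changes of 1.89 and 0.60 in KO and 1.58 and 0.77 in WT. Lars2, the mitochondrial leucyl-tRNA synthetase, fell in both, with log2 fold changes of −1.45 in KO (adjusted p = 0.00836) and −1.55 in WT (adjusted p = 0.00563). In CPM it averaged 501 ± 94.9 for KO 24 h, 522 ± 47.5 for WT 24 h, 1369 ± 509 for KO 0 h and 1530 ± 546 for WT 0 h (SD, n = 3 each), levels far above those of any member. The part of the Rn45s reads, which were likewise lower at 24 h, in that result was not tested. Of 15 genes of mitochondrial DNA transcription and upkeep, 1 rose and 3 fell in KO, and 1 rose and 2 fell in WT. Both subunits of the mitochondrial DNA polymerase fell: Polg2 had log2 fold changes of −0.73 in KO and −1.07 in WT, and Polg −0.48 in KO and −0.44 in WT (adjusted p = 0.0249, 0.000815, 0.00348 and 0.00636, in that order). Tfam, which packages mitochondrial DNA and starts its transcription, rose by 0.36 in WT (adjusted p = 0.0121) and had a log2 fold change of 0.13 in KO (adjusted p = 0.408). These splits moved with the scale, as did the calls over all 10981 genes tested, at 5111 in KO and 5048 in WT on library size alone. On library size alone the counts were 9 higher and 1 lower in KO and 12 and 1 in WT for assembly. For translation factors and related genes they were 6 and 0 in both genotypes. For the synthetases and related enzymes they were 8 and 1 in KO and 4 and 1 in WT. For transcription and upkeep they were 5 and 0 in KO and 5 and 1 in WT. Of the polymerase subunits, Polg2 in WT alone still passed (adjusted p = 0.00693), and Polg in both genotypes and Polg2 in KO did not (adjusted p = 0.149, 0.153 and 0.141).

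Regulators of mitochondrial genes and the import machinery were read in the same way. Of 10 tested transcriptional regulators of mitochondrial genes, Myc, Pprc1 and Sp1 rose in both genotypes and none fell. In KO, Myc averaged 638 ± 39.2 CPM at 24 h, against 206 ± 43.6 at 0 h, and in WT 672 ± 61.1 CPM at 24 h, against 292 ± 29.7 at 0 h (SD, n = 3 each). Its log2 fold change of 24 h over 0 h was 1.63 ± 0.11 in KO and 1.20 ± 0.11 in WT (adjusted p = 3.31e-14 and 3.32e-11). Myc was lower in KO 0 h than in WT 0 h, with a log2 fold change of −0.50 ± 0.11 (adjusted p = 0.0236), and it was the one gene of these lists with a genotype call. The activated T cell markers, Myc among them, summed to 697.4 to 775.1 CPM in KO 0 h, against 789.2 to 929.9 CPM in WT 0 h, and their part in this difference was not tested. Of 24 genes of import and of mitochondrial chaperones, 9 rose and 3 fell in KO, and 11 rose and 1 fell in WT, with median log2 fold changes of 0.20 and 0.36. That is 50.0% called in each genotype, beside 40.4% of all genes in KO and 40.7% in WT. On library size alone 13 rose and 0 fell in KO, and 16 rose and 0 fell in WT. The chaperones Hspa9 and Hspd1 rose by 1.67 and 1.27 in KO and by 1.72 and 1.35 in WT on the log2 scale. Timm10, a chaperone of the space between the mitochondrial membranes, rose by 1.02 in KO and 1.49 in WT.

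Genes of the cytosolic ribosome and of the respiratory chain had more falls than rises under TMM. Of 82 cytosolic ribosomal protein genes, 3 rose and 55 fell in KO, and 3 rose and 48 fell in WT, with median log2 fold changes of −0.35 and −0.28. On the scale of library size alone the counts were 5 and 27 in KO and 5 and 21 in WT, and the medians stayed negative at −0.11 and −0.08. Rps21, of the small cytosolic subunit, had log2 fold changes of −0.64 in KO and −0.87 in WT, while the ribosomal protein relatives Rps27l and Rpl7l1 rose by 1.29 and 0.83 in KO and by 1.32 and 1.00 in WT. Of 77 nuclear genes of respiratory chain subunits, 2 rose and 28 fell in KO, and 3 rose and 23 fell in WT, with medians of −0.22 and −0.19. This direction depended on the scale: with library size alone, 8 rose and 10 fell in KO and 12 rose and 13 fell in WT, and the medians were 0.02 and 0.01. Ndufa3 of complex I and Cox8a of cytochrome c oxidase fell in both genotypes on both scales, with log2 fold changes under TMM of −0.90 and −0.68 in KO and −1.11 and −0.83 in WT. Cox6a2, a muscle form of a subunit, averaged 1.52 ± 0.480 CPM in WT 24 h and was at 0 in all 3 WT 0 h libraries. The members, at medians of 0.00 in KO and 0.05 in WT under TMM, lay between these lists and the import genes. With library size alone the members were at 0.24 and 0.25 and the import genes at 0.44 and 0.57, which left the order as it was. Differences between the lists were not tested.

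**Figure D4:**
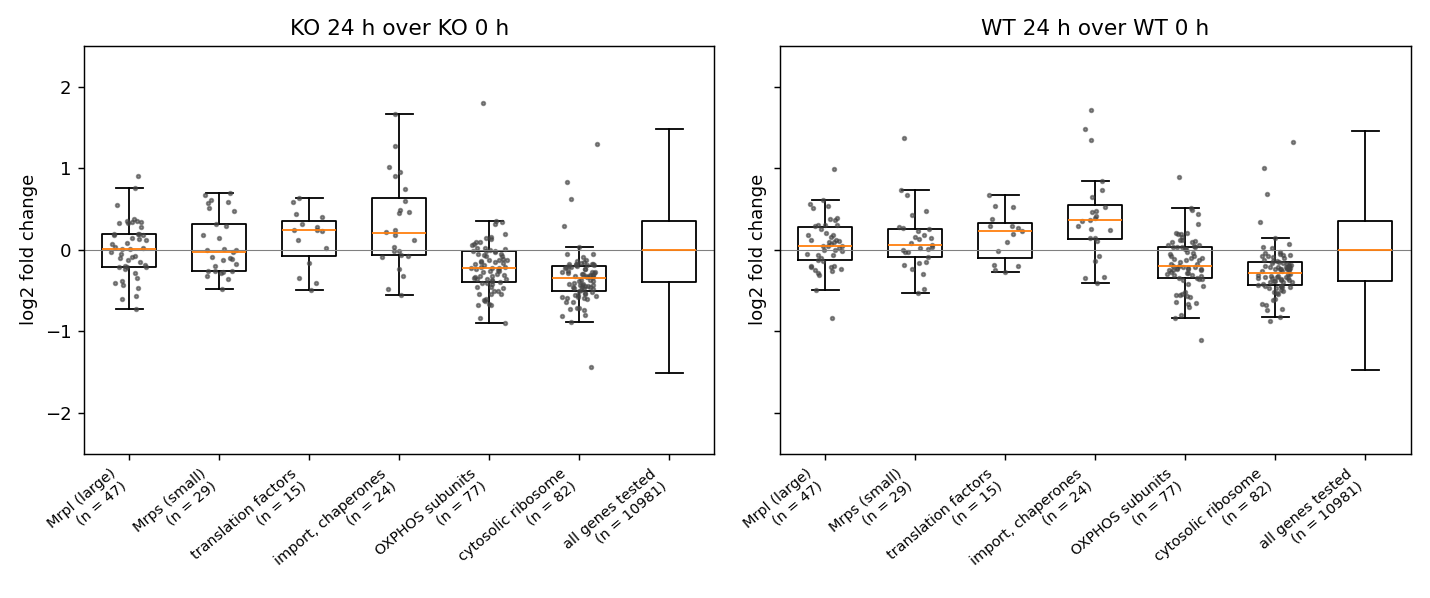
Log2 fold change of 24 h over 0 h in KO (left) and WT (right). Shown are the 2 subunits, mitochondrial translation factors with related genes, import genes and chaperones, respiratory chain subunits, the cytosolic ribosome and all 10981 genes tested. Points are genes, drawn for each list but not for all genes tested. Boxes show the quartiles with the median as a line, and whiskers reach the farthest gene within the usual 1.5 box lengths. The boxes of both subunits straddle 0 and are narrower than that of all genes. Outside the axis lie 295 of all genes tested in KO and 292 in WT, with 1 respiratory chain subunit among them in each.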

How the data were processed

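RNA of 12 libraries of CD4+ T cells was made from 100 ng of total RNA with a probe-based removal of ribosomal RNA, per the labels' protocols. The authors deposited raw read counts per gene symbol, 1 file per library. The submitters' processing notes name STAR 2.6.0c, DESeq and the build hg19, while the symbols are mouse symbols, so the build is uncertain and no coordinate was taken from the counts. Entries that name no gene (22.8% to 35.4% of the total for no feature, 25.7% to 30.9% for multiple mapping, 0.412% to 0.576% for ambiguous reads) entered neither library sizes nor tests. Gene reads came to 3.63 to 10.03 megareads per library.

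From the deposited counts, edgeR 4.0.16 (R 4.3.3) gave a robust quasi-likelihood fit of the 4 groups with TMM factors. Genes kept had at least 10 counts by the edgeR filter and 15 in total, and p-values were adjusted with the Benjamini-Hochberg method over 10981 genes, with a threshold of 0.05. The fit was also run on simulated data in which few genes changed, about evenly in both directions. Such data do not test the choice of scale. Tests were 24 h against 0 h in each genotype, KO against WT at each time, and the interaction. Errors of log2 fold changes are standard errors. Sums and ratios over the members carry no test. Replicates of a group differed by more than counting noise, so none was merged. The text names every member called for time, the 2 of lowest p per subunit for genotype and interaction, Mrps18a, Mrps18c, Mrps30, Mrps36 and Mrps12, the 3 highest and lowest per kilobase in each subunit, and of each other list up to 3 called genes with the largest change in WT. Chchd1, Ptcd3 and Ict1 were named after their values were seen. Promoter windows are those of RefSeq, GRCm38.p6, and exon lengths those of GENCODE M21. The members, lists and markers were chosen with earlier results of these data known. Alternatives were DESeq2 1.42.0, other factors and filters, a replicate block, and fits without single libraries. The sum over the B cell markers is not reported here, and the B cell markers given, with the other single markers, were named after their values were seen.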

Additional observations from a re-analysis of the deposited data

How the results depend on the processing

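Counts of called members depended most on the scale. With library size alone, 20 members were called in WT (18 higher, 2 lower) and 22 in KO (21 higher, 1 lower), and with upper-quartile factors 9 fell in KO. On library size alone, calls over all 10981 genes tested rose too, to 5048 in WT and 5111 in KO, beside 4470 and 4435 under TMM. Of the members, DESeq2 called 10 higher and 5 lower in KO, and 8 higher and 4 lower in WT. Counts under the other settings were within 1.5 times those given, and no named gene reversed. For genotype and interaction, no value of a named gene newly passed under these settings. For time, genes were followed only where they had been called, so a new pass could not show. Over these settings, 9 values that had been called no longer passed. Among these were Mrpl15 (adjusted p = 0.0707) and Mrps10 (adjusted p = 0.057) in KO with upper-quartile factors and Mrpl18 in KO with no filter (adjusted p = 0.0544), all by edgeR. Leaving out 1 library gave 7 to 15 calls in KO (3 to 10 higher, 2 to 6 lower), 11 to 13 in WT (7 to 9 higher, 3 to 5 lower), and 0 for genotype and interaction. The subunit ratio then ranged from 1.933 to 1.946 in KO 24 h, 1.929 to 1.964 in WT 24 h, 1.96 to 2.009 in KO 0 h and 1.965 to 1.999 in WT 0 h. By structure it was 2.231 in KO 24 h, 2.246 in WT 24 h, 2.293 in KO 0 h and 2.276 in WT 0 h, and as a ratio of medians 1.185, 1.185, 1.184 and 1.212 in the same order. The cause of these shifts was not tested.

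With the replicate number as a block, 13 members were called in KO (8 higher, 5 lower), 12 in WT (8 higher, 4 lower) and 0 for genotype and interaction. Over all groups, 18 pairs of libraries of 1 number had correlations from −0.126 to 0.107, beside −0.174 to 0.166 for 36 pairs of different numbers. Between 24 h and 0 h of 1 genotype, pairs of 1 number had 0.014, 0.094 and 0.107 in WT and 0.034, −0.012 and 0.041 in KO. Pairs of different numbers there ran from −0.102 to 0.017 in WT and from −0.051 to 0.021 in KO. These small correlations do not settle whether libraries of 1 number were paired, so the block was not read as a pairing. Depth limits the members of low level most: Mrpl47 and Mrps22 rest on 616 and 647 reads over 12 libraries.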
